A study of Mus musculus with 18 samples.

Results

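The integrated stress response (ISR) and unfolded protein response (UPR) genes described here are 38 genes chosen by symbol, from the transcription factors and targets of the ATF4 arm to the endoplasmic reticulum (ER) stress sensors and ER chaperones. All 38 were found among the 51912 genes counted, and all 38 were among the 24495 genes that passed the filter of 10 read pairs over the 18 libraries. The cultures were primary cortical astrocytes from postnatal day 0 Aldh1l1-EGFP/Rpl10a transgenic pups (line JD130Htz on a B6;FVB background, hemizygous). In these mice the Aldh1l1 promoter drives ribosomal protein Rpl10a fused to EGFP, so only cells that use this promoter carry tagged ribosomes. After 14 days in culture, 6 days on new dishes and 24 h without serum, 6 control dishes were kept in serum-free medium and 6 ethanol dishes received 50 mM ethanol in serum-free medium for 24 h. RNA on tagged ribosomes was pulled down with GFP antibodies by translating ribosome affinity purification (TRAP), giving 6 IP control and 6 IP ethanol libraries. An aliquot of lysate taken before the pull-down from 3 control and 3 ethanol dishes (replicates 4 to 6) gave the input libraries. The labels describe the replicates as dishes and do not tie them to separate litters or cell preparations, so p-values cover dishes alone. The test used below (edgeR) takes a spread between dishes that is partly shared among genes of like level. For the members in input, the p-values rest almost wholly on that shared spread and not on the 3 dishes per group of each gene.

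When proteins misfold in the ER, 3 membrane sensors respond. PERK phosphorylates the translation factor eIF2α, which slows protein synthesis in general and lets ATF4 be made; IRE1, the product of Ern1, splices the Xbp1 mRNA; and ATF6 is cut in the Golgi to release a transcription factor. Kinases that sense amino acid shortage, heme loss or viral RNA also phosphorylate eIF2α, so the ATF4 arm can run without ER stress. The arm that these kinases and PERK share is called the ISR. ATF4 targets include genes for amino acid supply and for stress-induced cell death, whereas XBP1 and ATF6 raise chaperones and the machinery that removes misfolded proteins.

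The promoters of these genes are known for 2 kinds of element, shown here because they are the known sites of the ATF6 and XBP1 arm and of the ATF4 arm. The ER stress response element (ERSE) is CCAAT, 9 bases, then CCACG; the related ERSE-II is ATTGG, 1 base, then CCACG; the C/EBP-ATF response element (CARE) is TGATGNAA. Both strands of the RefSeq promoter windows on GRCm38.p6 were searched, each from 250 bases before to 50 bases after a start. Windows were held for 34 of the 38 members; Ppp1r15b, Atf6, Hyou1 and Manf had none in the table used. The sequences below run 5′ to 3′ on the strand of the gene, with the whole element in capitals and 12 bases of flank on each side in lower case. An element on the opposite strand of the gene reads in reverse, as in Calr and Nupr1.
Hspa5 ERSE, chr2:34772013-34772055, plus strand: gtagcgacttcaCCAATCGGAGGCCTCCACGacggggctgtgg
Canx ERSE, chr11:50325788-50325830, minus strand: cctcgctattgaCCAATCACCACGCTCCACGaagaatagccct
Calr ERSE, chr8:84847063-84847105, minus strand: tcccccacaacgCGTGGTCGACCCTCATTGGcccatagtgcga
Syvn1 ERSE, chr19:6046520-6046562, plus strand: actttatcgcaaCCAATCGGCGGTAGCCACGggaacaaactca
Herpud1 ERSE-II, chr8:94386365-94386399, plus strand: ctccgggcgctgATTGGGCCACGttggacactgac
Herpud1 CARE, chr8:94386305-94386336, plus strand: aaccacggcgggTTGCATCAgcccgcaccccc
Asns CARE, chr6:7693213-7693244, minus strand: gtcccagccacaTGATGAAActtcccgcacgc
Nupr1 CARE, chr7:126625561-126625592, minus strand: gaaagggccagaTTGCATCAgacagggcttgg
Vldlr CARE, chr19:27216808-27216839, plus strand: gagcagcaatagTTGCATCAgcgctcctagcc
Chac1 CARE, chr2:119351037-119351068, plus strand: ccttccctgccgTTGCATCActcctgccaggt
An ERSE was present in 8 of the 34 members (Hspa5, Hsp90b1, Dnajc3, Pdia6, Calr, Canx, Creld2 and Syvn1), against 0.137% of the 27025 genes with a window. An ERSE-II was present in Dnajb11 and Herpud1, against 0.0444% of genes. A CARE was present in 7 (Atf3, Asns, Trib3, Chac1, Nupr1, Vldlr and Herpud1), against 4.51% of genes. The UPR element TGACGTGG, present in 0.714% of genes, was found in 0 of the 34. Herpud1 was the single member with both an ERSE-II and a CARE, and no member carried both an ERSE and a CARE. A match of letters is a description and says nothing about binding.

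The libraries held from 74239854 to 132810705 read pairs on genes, and 89.6% to 93.4% of the read pairs of a library mapped to 1 place. The least sequenced member, Trib3, had 171 read pairs in its lowest library. Levels are given as CPM, read pairs scaled to library size, after TMM scaling, which also corrects for composition. The summed CPM of 10 astrocyte markers lay between 2383 and 2562 in the IP libraries and between 1515 and 1595 in the inputs, whereas 10 microglial markers summed to between 14.2 and 18.1 in IP and between 80.8 and 97.9 in input. Sums of other lists were also higher in IP in the control libraries. Oligodendrocyte lineage markers summed to between 403.4 and 424.2 in IP and between 261.6 and 283.3 in input. Neuronal markers summed to between 141 and 148.5 in IP and between 114.9 and 117.5 in input. Endothelial and mural markers summed to between 1625 and 1759 in IP and between 1294 and 1365 in input. Fibroblast markers went the other way, at 236.3 to 255.7 and 337.9 to 348.9. The endothelial gene Cldn5 had 0 read pairs in all 18 libraries and Pecam1 and Cdh5 averaged at most 0.362 CPM, but Kdr, also endothelial, averaged 5.20 CPM in IP control and 3.34 in input control, and no other marker listed for astrocytes, microglia, neurons, oligodendrocyte lineage, fibroblasts and endothelial or mural cells was at 0 throughout a group. Bulk RNA cannot tell a change in RNA per cell from a change in the number of cells that hold it.

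Per kilobase of the longest GENCODE transcript, some ER chaperones and disulfide isomerases had the highest levels in untreated cultures. The ATF4 effectors Trib3 and Chac1 had the lowest. In IP control libraries, Calr, a lectin chaperone that holds calcium, averaged 363 CPM per kb, Pdia3, its disulfide isomerase partner, 294, and Hspa5, the HSP70 chaperone BiP that restrains the sensors, 193. The lectin chaperone Canx averaged 184 CPM per kb and the HSP90 chaperone Hsp90b1 123. The count of Hsp90b1 on its annotated strand was, however, 141% of the unstranded count used here. Other chaperones were lower: Dnajb11, Hyou1, Manf, Creld2, Dnajc3, Dnajb9 and Sdf2l1 lay between 18.1 and 52.4 CPM per kb. Among transcription factors the order was Atf5 at 90.9 CPM per kb, Atf4 at 75.3 and Ddit3 at 66.0, with Cebpb at 19.5, Nupr1 at 13.3 and Atf3 at 8.32. The sensors were low, at 11.1 CPM per kb for Atf6 and 5.39 for Ern1, and Trib3 was the lowest member at 1.30.

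**Figure D1:**
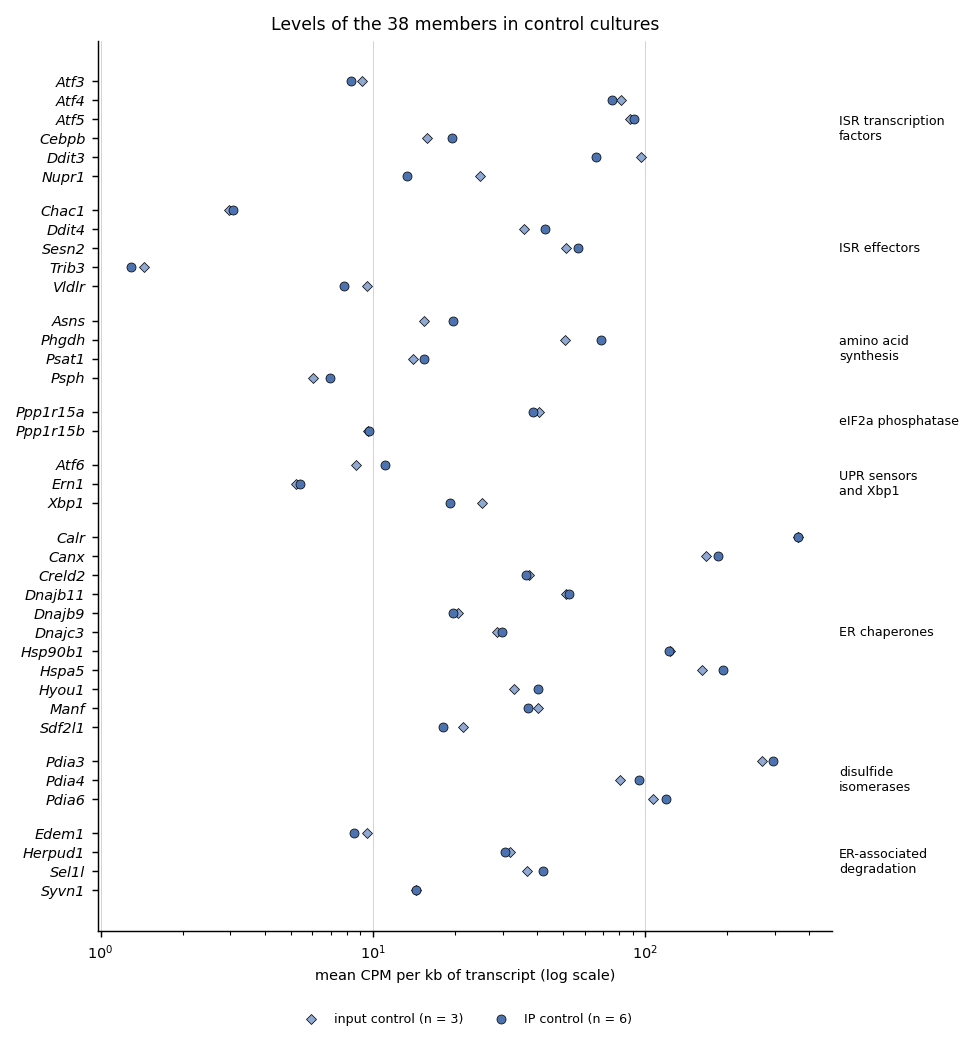
Mean level of each of the 38 members in control cultures, in CPM per kb of transcript on a log scale, with genes grouped by role. Circles are the mean of 6 IP control libraries and diamonds the mean of 3 input control libraries; values run from 1.30 for Trib3 to 363 for Calr in IP.

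Ethanol was compared with control within each fraction to ask which members changed in RNA on tagged astrocyte ribosomes and which in total culture RNA. In IP, 19 of the 38 members were higher with ethanol and 2 were lower by edgeR's quasi-likelihood test with Benjamini-Hochberg adjustment over all genes tested, and 17 were not called. Over all genes tested, 11.9% were called higher and 9.48% lower. Since members were mostly well expressed, the same shares were taken over the 11773 genes with a mean at least that of the lowest member. These were 22.4% and 16.9%. This set has the lowest member as its floor. It was not matched to the levels of the members, most of which lay well above that floor. The 6 ethanol libraries did not overlap the 6 controls for 13 members, against 9.96% of all genes. The median log2 fold change of the members was 0.09, and that of all genes tested was 0.01. Within IP replicates 4 to 6 alone 11 members were called higher, against 7.45% of all genes, and within replicates 1 to 3 alone 16, against 6.63%. In input, 13 members were higher, 2 were lower and 23 were not called. The shares were 7.21% higher and 7.78% lower among all genes tested. Among genes at least as high as the lowest member they were 14.1% and 14.8%. The 3 ethanol inputs did not overlap the 3 controls for 18 members, against 27.1% of all genes, and the median log2 fold change was 0.03. Shares without overlap, and those within replicates 4 to 6 or 1 to 3, were taken over all genes, without that floor.

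Changes were small. Only Atf5 and Trib3 changed by more than 1.2-fold in IP, and Atf5, Trib3 and Psat1 in input. The same 12 members were called higher in both fractions: Atf4, Atf5, Ddit3, Trib3, Sesn2, Nupr1, Vldlr, Dnajb9, Pdia3, Canx, Herpud1 and Sel1l. Psat1 and Phgdh were called lower in both. Ern1, Hspa5, Hsp90b1, Pdia4, Sdf2l1, Edem1 and Syvn1 were called higher in IP alone, Ddit4 in input alone, and 16 members were called in neither fraction.

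**Figure D2:**
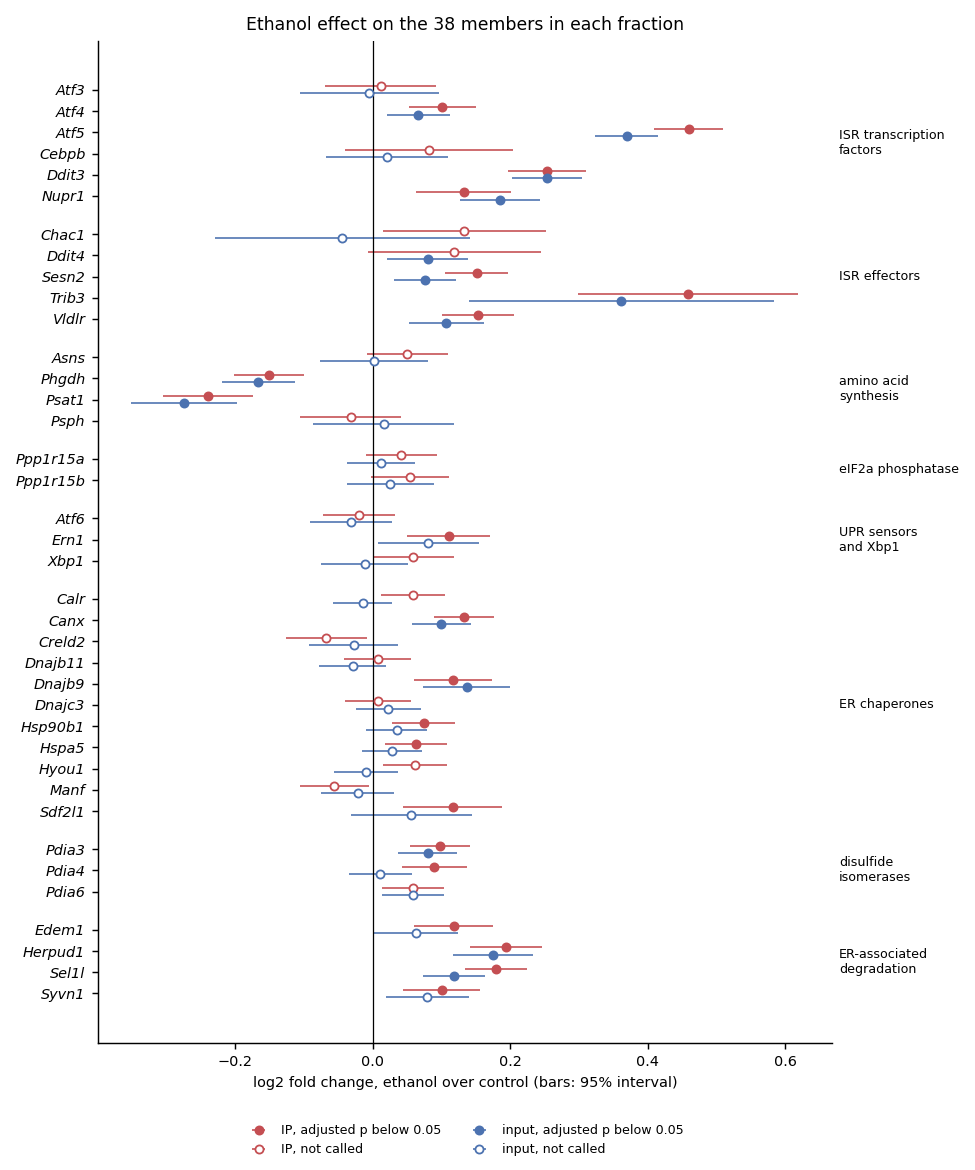
Log2 fold change of ethanol over control for the 38 members, grouped by role, in IP (red, 6 against 6 libraries) and input (blue, 3 against 3). Bars are 95% intervals from the SE under a normal curve, and filled points have an adjusted p below 0.05 in edgeR. Atf5 and Trib3 lie farthest to the right and Psat1 and Phgdh to the left in both fractions.

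Of the 6 ISR transcription factors, 4 rose in IP and the same 4 in input: Atf4, Atf5, Ddit3 and Nupr1. For all genes tested, the shares called higher were 11.9% in IP and 7.21% in input. For genes at least as high as the lowest member they were 22.4% and 14.1%. Atf5, a factor whose translation is also favoured when eIF2α is phosphorylated, and Trib3 had the largest increases among the members. The lowest, median and highest values of Atf5 in IP were 157, 166.3 and 169 CPM in control and 215, 226 and 240 CPM with ethanol. In input Atf5 stood at 157, 162 and 161 CPM in control and 208, 210 and 203 CPM with ethanol. Every ethanol library was above every control library in both fractions. On the log2 scale the change was 0.46 in IP (SE 0.025, adjusted p = 5.97e-22 in edgeR) and 0.37 in input (SE 0.023, adjusted p = 3.10e-53). With the GC and length trend removed it was 0.43 in IP, below the 0.45 of Trib3.

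Ddit3 encodes CHOP, a factor tied to cell death under lasting ER stress. Its values in IP ran from 61.5 to 65.9 CPM in control, with a median of 64.2, and from 69.5 to 79.9 CPM with ethanol, with a median of 76.1. The input controls were at 95.1, 93.0 and 93.1 CPM and the ethanol inputs at 112, 111 and 114 CPM. Here too the groups did not overlap in either fraction. The log2 fold change was 0.25 in both IP (SE 0.029, adjusted p = 3.61e-10 in edgeR) and input (SE 0.026, adjusted p = 5.35e-20). Removing the GC and length trend raised it to 0.34 in IP. Ddit3 and Atf5 share exons with genes on the other strand (Mars and Gm4189, Nup62 and Il4i1), and counts of the annotated strand alone, 105% and 116% of the unstranded counts, gave 0.25 and 0.46 in IP.

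Atf4, the factor at the head of the ISR, changed less. In IP it ran from 147.1 to 160 CPM in control (median 150.7) and from 157 to 169 CPM with ethanol (median 163.3), and in input from 165.6, 162.1 and 164.2 CPM to 173, 173 and 170 CPM. The IP groups overlapped and the input groups did not. Its log2 fold change was 0.10 in IP (SE 0.025, adjusted p = 0.00137 in edgeR) and 0.07 in input (SE 0.023, adjusted p = 0.0338). The input call was lost without control replicate 5 or 6 or without ethanol replicate 4 or 5, with adjusted p between 0.0847 and 0.177.

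Nupr1, a small stress-induced chromatin protein, ran from 31.3 to 33.8 CPM (median 32.8) in IP control and from 31.9 to 38.02 CPM (median 36.1) in IP ethanol, and in input from 62.5, 58.4 and 61.4 CPM to 68.1, 68.8 and 71.1 CPM. The IP groups overlapped, and all 3 ethanol inputs were above the controls. Nupr1 changed by 0.13 on the log2 scale in IP (SE 0.035, adjusted p = 0.00319 in edgeR) and 0.19 in input (SE 0.030, adjusted p = 3.02e-08). In IP replicates 4 to 6 alone it was 0.11, with an adjusted p of 0.0651. Atf3 and Cebpb were not called, at 0.01 (95% interval -0.07 to 0.09) and 0.08 (-0.04 to 0.20) in IP and 0.00 and 0.02 in input. Without the GC and length trend Cebpb was at -0.01 in both fractions. Cebpb overlaps Tmem189 on the other strand, and its count on the annotated strand was 181% of the unstranded count.

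The ISR effectors followed, with 3 of 5 higher in IP and 4 of 5 higher in input, against 11.9% and 7.21% of all genes tested. Against genes at least as high as the lowest member, the shares were 22.4% and 14.1%. Trib3, a pseudokinase that restrains ATF4 and CHOP, was the scarcest member. It ran from 2.24 to 2.99 CPM (median 2.62) in IP control and from 3.19 to 4.02 CPM (median 3.49) in IP ethanol, and in input from 2.82, 3.19 and 2.74 CPM to 3.77, 3.40 and 4.13 CPM. No ethanol library was as low as any control of its fraction. Trib3 changed by 0.46 in IP (log2 scale, SE 0.082, adjusted p = 1.29e-05 in edgeR) and 0.36 in input (SE 0.113, adjusted p = 0.0129). The input call was lost without control replicate 4 or 6 or ethanol replicate 6, with values from 0.29 to 0.34 and adjusted p up to 0.125.

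Sesn2, an inhibitor of mTORC1 signalling, rose from a mean of 197 to 218 CPM in IP and from 177 to 188 CPM in input. The log2 fold changes were 0.15 (adjusted p = 7.34e-07 in edgeR) and 0.08 (adjusted p = 0.0101). The second was lost without input control replicate 4 (0.07, adjusted p = 0.0588). The lipoprotein receptor gene Vldlr rose by 0.15 in IP and by 0.11 in input, where the call was lost without input control replicate 5 (0.08, adjusted p = 0.111). For both genes the ethanol libraries lay above all controls of their fraction. Ddit4, another mTORC1 inhibitor, was at 0.12 in IP (SE 0.064, adjusted p = 0.252) and at 0.08 in input (adjusted p = 0.0487). Its IP value was called with the replicate number as a block (adjusted p = 8.18e-05) and in replicates 1 to 3 alone (0.14, adjusted p = 0.00585). The input call was lost without control replicate 4 or 5 or ethanol replicate 5 or 6, with adjusted p between 0.117 and 0.296. Chac1, which breaks down glutathione, was not called, at 0.13 (95% interval 0.01 to 0.25) in IP and -0.04 (-0.23 to 0.14) in input.

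The amino acid synthesis enzymes were, by edgeR's test over all libraries, the one role with members called lower after ethanol. Psat1 and Phgdh, which catalyse steps of serine synthesis from a glycolytic intermediate, fell in both fractions. Psat1 ran from 38.9 to 42.7 CPM (median 40.0) in IP control and from 31.8 to 37.5 CPM (median 33.3) in IP ethanol, and in input from 35.2, 37.3 and 37.4 CPM to 30.3, 31.0 and 29.8 CPM. All ethanol libraries were below all controls of their fraction. Its log2 fold change was -0.24 in IP (SE 0.033, adjusted p = 7.02e-08 in edgeR) and -0.27 in input (SE 0.039, adjusted p = 2.34e-10).

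Phgdh, the first enzyme of that path, ran from 126 to 135 CPM (median 130.2) in IP control and from 111 to 124 CPM (median 116) in IP ethanol. In input it went from 94.0, 97.2 and 97.0 CPM to 88.7, 83.6 and 85.2 CPM. Again there was no overlap in either fraction. Its log2 fold change was -0.15 in IP (SE 0.026, adjusted p = 8.71e-06 in edgeR) and -0.17 in input (SE 0.027, adjusted p = 3.49e-08). The last enzyme of the path, Psph, was not called, at -0.03 (95% interval -0.11 to 0.04) in IP and 0.02 in input; 37.9% of the read pairs on either strand of Psph came from the strand of the overlapping gene Cct6a.

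Asns, which makes asparagine and is a standard ATF4 target, did not pass the test in either fraction. Its values ran from 37.97 to 40.5 CPM (median 39.7) in IP control and from 39.3 to 42.9 CPM (median 40.8) in IP ethanol. The inputs were at 30.5, 31.5 and 31.0 CPM in control and 32.4, 30.3 and 30.8 CPM with ethanol, and the groups overlapped in both fractions. The log2 fold change was 0.05 in IP (95% interval -0.01 to 0.11, adjusted p = 0.264 in edgeR) and 0.00 in input (-0.08 to 0.08). With the GC and length trend removed the IP value was 0.08 with an adjusted p of 0.0206.

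**Figure D3:**
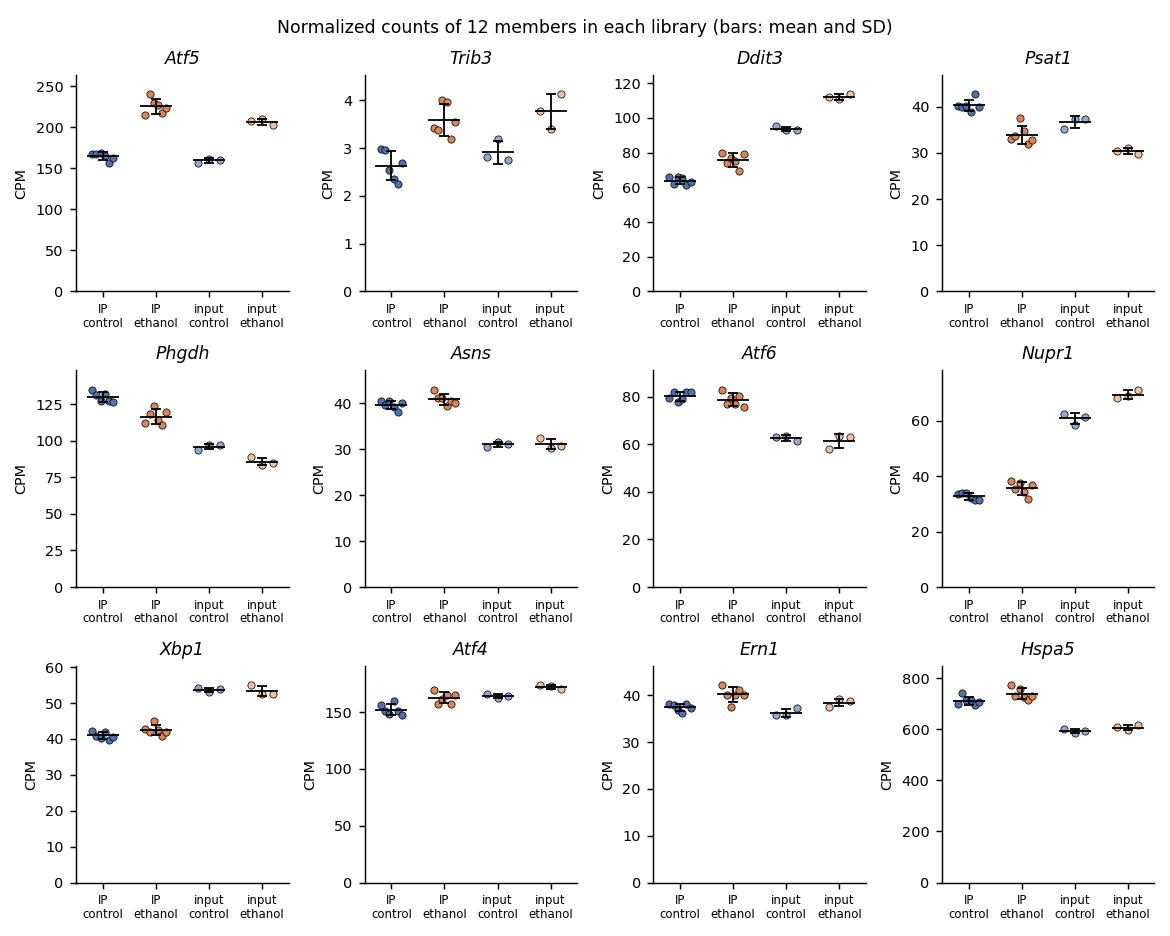
CPM of 12 members in each of the 18 libraries, by fraction and treatment, on axes that start at 0, with the mean and SD of each group. Atf5, Trib3, Ddit3, Psat1 and Phgdh separate by treatment in both fractions, and Nupr1, Ddit3, Xbp1, Phgdh, Asns and Atf6 separate by fraction.

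Neither gene for a subunit that brings the phosphatase to eIF2α was called. Ppp1r15a, the stress-induced GADD34, was at 0.04 (95% interval -0.01 to 0.09) in IP and 0.01 in input, and Ppp1r15b, the constitutive one, at 0.05 (0.00 to 0.11) and 0.03.

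Of the 2 sensor genes among the members, Ern1 and Atf6, Ern1 was called in IP and neither was called in input. Ern1 ran from 36.2 to 38.2 CPM (median 37.6) in IP control and from 37.5 to 42.2 CPM (median 40.2) in IP ethanol, and in input from 35.9, 35.7 and 37.2 CPM to 37.5, 39.2 and 38.7 CPM. The IP groups overlapped at their edges, and the ethanol inputs lay just above the controls. Its log2 fold change was 0.11 in IP (SE 0.031, adjusted p = 0.00558 in edgeR) and 0.08 in input (SE 0.037, adjusted p = 0.145). The IP call was lost once the GC and length trend was removed (0.06, adjusted p = 0.108) and in replicates 1 to 3 alone (0.09, adjusted p = 0.240).

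Atf6 did not pass the test. It ran from 77.7 to 81.9 CPM (median 80.5) in IP control and from 75.8 to 82.9 CPM (median 78.2) in IP ethanol, and in input from 63.1, 63.5 and 61.2 CPM to 58.0, 63.4 and 62.9 CPM. Its log2 fold change was -0.02 in IP (95% interval -0.07 to 0.03, adjusted p = 0.685 in edgeR) and -0.03 in input. With the GC and length trend removed, the IP value was -0.06 with an adjusted p of 0.0441. Its ethanol and control libraries overlapped in both fractions.

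Xbp1, whose mRNA is the substrate of IRE1, was also not called. Its IP values ran from 39.8 to 42.2 CPM (median 40.8) in control and from 40.7 to 45.1 CPM (median 42.2) with ethanol, and its input values from 54.1, 53.0 and 53.9 CPM to 55.0, 52.5 and 52.6 CPM. These ranges overlapped. The log2 fold change was 0.06 in IP (95% interval 0.00 to 0.12, adjusted p = 0.169 in edgeR, and 0.07 with adjusted p = 0.0310 after the GC and length trend was removed) and -0.01 in input. The unadjusted p in IP was 0.0525 in edgeR, although the interval, taken from the SE alone, lay just above no change at its lower end. Counts per gene do not separate the spliced from the unspliced mRNA.

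Of the 11 ER chaperones and co-chaperones, 5 rose and 0 fell in IP, and 2 rose and 0 fell in input. The shares called higher were 11.9% and 7.21% of all genes tested, and 22.4% and 14.1% of genes at least as high as the lowest member. The input count was near the last of these shares. Canx had the largest increase among the chaperones in IP. It rose from a mean of 789 to 861 CPM in IP and from 715 to 768 CPM in input, with log2 fold changes of 0.13 (adjusted p = 4.42e-06 in edgeR) and 0.10 (adjusted p = 0.000114). Dnajb9, the J-domain co-chaperone ERdj4, rose by 0.12 and 0.14, and its ethanol libraries also lay above all controls in both fractions. In IP replicates 4 to 6 alone Dnajb9 was at 0.08 and not called (adjusted p = 0.142 in edgeR).

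Hspa5, the usual marker of the UPR, changed by 0.06 in IP (SE 0.023, adjusted p = 0.0375 in edgeR) and by 0.03 in input (95% interval -0.02 to 0.07). It ran from 694 to 740 CPM (median 709) in IP control and from 715 to 772 CPM (median 732) in IP ethanol, and in input from 602, 585 and 593 CPM to 607, 597 and 617 CPM. The groups overlapped in both fractions. The IP call was lost without any 1 of 9 libraries (IP control 1, 3, 4, 5 or 6, IP ethanol 1, 2, 3 or 6), with values from 0.05 to 0.06 and adjusted p between 0.0736 and 0.140. It was also lost in replicates 4 to 6 alone (0.04, adjusted p = 0.433), in replicates 1 to 3 alone (0.08, adjusted p = 0.118) and in DESeq2 (adjusted p = 0.0522).

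The other 2 chaperones called in IP also depended on single libraries. Hsp90b1 was at 0.07 (adjusted p = 0.0156 in edgeR) and lost its call without IP control 1, 3 or 4 or IP ethanol 1, with adjusted p up to 0.098. It was also not called in replicates 4 to 6 alone (0.05, adjusted p = 0.249) or in replicates 1 to 3 alone (0.08, adjusted p = 0.0841). Sdf2l1, a partner of ER J-domain proteins, was at 0.12 (adjusted p = 0.0151) and lost its call without IP ethanol 1 (adjusted p = 0.0570). In replicates 4 to 6 alone Sdf2l1 was at 0.07 (adjusted p = 0.455).

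The 6 chaperones not called in IP were Calr, Creld2, Dnajb11, Dnajc3, Hyou1 and Manf. Calr and Hyou1, an HSP70-like exchange factor, were at 0.06 each in IP and at -0.01 each in input. Calr passed in IP without IP ethanol 5 (adjusted p = 0.0373), and Hyou1 without IP control 2 or IP ethanol 1 or 5 (adjusted p from 0.0253 to 0.0495). With the replicate number as a block both passed (adjusted p of 0.0214 and 0.0356). With the GC and length trend removed Calr was at 0.08 (adjusted p = 0.000893) and Hyou1 at 0.02 (adjusted p = 0.501). The secreted ER proteins Manf and Creld2 had negative values, at -0.06 (95% interval -0.11 to -0.01, adjusted p = 0.121) and -0.07 (-0.13 to -0.01, adjusted p = 0.108) in IP. DESeq2 called both lower, with adjusted p of 0.0205 and 0.0463; edgeR did so for both with its own filter on low counts (adjusted p of 0.0356 and 0.0430), for Manf on the annotated strand (adjusted p = 0.0431) or without IP ethanol 2 (adjusted p = 0.0462) and for Creld2 without IP control 6 or IP ethanol 3 (adjusted p of 0.0389 and 0.0486). With the GC and length trend removed they were at -0.04 and -0.03 (adjusted p of 0.201 and 0.505). The J-domain co-chaperones Dnajb11 and Dnajc3 were at 0.01 each in IP, with intervals from -0.04 to 0.06.

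Among the 3 protein disulfide isomerases, Pdia3 and Pdia4 rose in IP and Pdia3 in input, against 11.9% and 7.21% of all genes tested. Against genes at least as high as the lowest member, the shares were 22.4% and 14.1%. Pdia3 went from a mean of 813 to 866 CPM in IP (0.10, adjusted p = 0.000537 in edgeR) and from 741 to 786 CPM in input (0.08, adjusted p = 0.00326), where the call was lost without control replicate 5 or ethanol replicate 6 (adjusted p of 0.0982 and 0.0808). Pdia4 was at 0.09 in IP (adjusted p of 0.00329) and at 0.01 in input (95% interval -0.03 to 0.06). In IP replicates 4 to 6 alone neither Pdia3 nor Pdia4 was called, at 0.07 each (adjusted p of 0.0574 and 0.0977). Pdia6 was at 0.06 in both fractions, with adjusted p of 0.0564 and 0.0644. Its IP value passed with DESeq2 (adjusted p = 0.0489), with the GC and length trend removed (0.08, adjusted p = 0.000572), with the replicate block (adjusted p = 0.0400) and without IP ethanol 5 (adjusted p = 0.0211). Its input value passed with total counts (adjusted p = 0.0253), with the GC and length trend removed (0.07, adjusted p = 0.00640), with the replicate block (adjusted p = 0.0466) and without control replicate 6 (adjusted p = 0.0451).

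All 4 genes of ER-associated degradation, the path that returns misfolded proteins to the proteasome, rose in IP, and 2 of 4 rose in input. The shares called higher were 11.9% and 7.21% of all genes tested, and 22.4% and 14.1% of genes at least as high as the lowest member. Herpud1, a membrane scaffold of the degradation complex, went from 59.8 ± 0.726 to 68.0 ± 1.78 CPM (SD, n = 6) in IP and from 62.1 to 70.2 CPM in input. Its log2 fold changes were 0.19 (adjusted p = 5.06e-08 in edgeR) and 0.17 (adjusted p = 1.83e-07). Sel1l, the adaptor of the ubiquitin ligase HRD1, went from 266 ± 3.94 to 300.1 ± 6.33 CPM (SD, n = 6) in IP, and its log2 fold changes were 0.18 in IP and 0.12 in input (adjusted p of 7.08e-09 and 7.41e-06). Neither gene had overlapping groups in either fraction.

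Syvn1, which encodes HRD1 itself, was at 0.10 in IP (adjusted p = 0.00694 in edgeR) and 0.08 in input (adjusted p = 0.0608). It lost the IP call when the GC and length trend was removed (0.05, adjusted p = 0.125) or in replicates 1 to 3 alone (0.05, adjusted p = 0.543), and gained the input call without control replicate 6 (0.11, adjusted p = 0.0157), with total counts, on the annotated strand or with the replicate block (adjusted p from 0.0315 to 0.0487). Edem1, a lectin that delivers glycoproteins to the ligase, was at 0.12 and 0.06 in IP and input (adjusted p of 0.00158 and 0.188). In IP replicates 4 to 6 alone Edem1 was at 0.10 and not called (adjusted p = 0.0776).

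Members were also read by promoter element. Over all genes tested, 11.9% were called higher in IP and 7.21% in input. Among genes at least as high as the lowest member the shares were 22.4% and 14.1%. Of the 8 members with an ERSE, 4 (Hspa5, Hsp90b1, Canx and Syvn1) were called higher in IP, with a median log2 fold change of 0.06. In input 1 of 8 (Canx) was called higher, with a median of 0.03. Of the 7 members with a CARE, 4 (Trib3, Nupr1, Vldlr and Herpud1) were called higher in each fraction, with medians of 0.13 and 0.11. Asns, Chac1 and Atf3 also carry a CARE and were called in neither.

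Other genes of the same pathways were read from lists of symbols. Of 20 other ISR genes tested, 9 were higher and 1 was lower in IP, with a median log2 fold change of 0.08. In input, 6 were higher and 1 was lower. Over all genes tested, 11.9% were higher and 9.48% lower in IP, and 7.21% and 7.78% in input. Among genes at least as high as the lowest member the shares were 22.4% and 16.9% in IP and 14.1% and 14.8% in input. Fgf21 was also listed but did not pass the filter on low counts. The largest increases in IP were 0.30 for the cystine transporter gene Slc7a11 (adjusted p = 8.37e-10 in edgeR) and 0.30 for the mitochondrial folate enzyme gene Aldh1l2 (adjusted p = 0.00128). The gene that fell was Eif2s1, which encodes eIF2α itself, at -0.22 in IP and -0.20 in input (adjusted p of 3.00e-09 and 7.38e-10). The PERK gene Eif2ak3, on both lists, was at 0.10 in IP and 0.09 in input (adjusted p of 0.00952 and 0.0218).

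Of 38 other UPR and ER genes, 15 were higher and 4 were lower in IP, with a median log2 fold change of 0.07. In input, 12 were higher and 3 were lower, with a median of 0.04. The shares over all genes tested were 11.9% higher and 9.48% lower in IP, and 7.21% and 7.78% in input. Among genes at least as high as the lowest member they were 22.4% and 16.9% in IP and 14.1% and 14.8% in input. The largest increases in IP were Derl3, at 0.29 (adjusted p = 0.0261 in edgeR, from 1.63 to 2.00 CPM), and Edem2, at 0.18 (adjusted p = 6.09e-07), both of ER-associated degradation. The largest decreases were Creb3, a membrane-bound transcription factor, at -0.23 (adjusted p = 1.65e-10), and Sec61b, a subunit of the ER translocon, at -0.17 (adjusted p = 3.24e-05).

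Some markers of cell types were also called changed with ethanol in the same libraries, for several lists at about the share of all genes. The summed CPM of the 9 endothelial and mural markers tested lay between 1625 and 1759 in IP control and between 1049 and 1246 in IP ethanol, and between 1294 and 1365 and between 894 and 962 in the inputs, mostly from Acta2 (a mean of 1589 CPM in IP control). Astrocyte markers summed to between 2383 and 2461 CPM in IP control and to between 2474 and 2562 in IP ethanol, and neuronal markers to between 141 and 148.5 and to between 130 and 137. Over all genes tested, 11.9% were called higher and 9.48% lower in IP, and 7.21% and 7.78% in input. Of the 10 astrocyte markers, 4 were called higher and 1 lower in IP and 4 each way in input, with medians of 0.01 and -0.03. Of the 10 neuronal markers, 1 was called each way in IP, and 2 higher and 1 lower in input. Of the endothelial and mural markers 0 were higher and 2 lower in either fraction. Of 10 oligodendrocyte lineage markers, 2 were higher and 1 lower in IP and 3 and 1 in input. Of 10 microglial markers, 1 was higher in IP and 2 in input, with 0 lower, and of 10 fibroblast markers 1 was higher in each fraction and 1 lower in input. Their part in the changes of the members was not tested.

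A change called in 1 fraction alone does not show that the fractions differed, so the ethanol effect in IP was compared with that in input as an interaction. In edgeR, 0 of the 38 members were called, with adjusted p from 0.837 and 0 members at an unadjusted p below 0.05, where 5.96% of all genes were, and 0.0% of all genes were called. DESeq2 also called 0 members, with 1 member (Sesn2) at an unadjusted p below 0.05, against 5.12% of all genes. A fit limited to the 6 dishes with both an IP and an input library (12 libraries), with the dish as a replicate block, called 0.416% of all genes and again 0 members. There, 8 members had an unadjusted p below 0.05, against 7.74% of all genes, and the lowest adjusted p was 0.0957 for Sesn2, followed by 0.184 for Atf5. Over all genes that fit called 94 with the larger effect in IP and 8 with the smaller. With the GC and length trend also removed, it called 20 and 31, and 0 members. Sesn2 then went from 0.12 to 0.06 (adjusted p = 0.761) and Atf5 from 0.11 to 0.07 (adjusted p = 0.634). Differences of the log2 fold changes, IP minus input, ran from -0.06 to 0.17 without the block and from -0.06 to 0.26 with it.

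All 18 libraries entered the comparison of IP with input, and treatment was a term in the fit, to ask which members were held on tagged astrocyte ribosomes at a level other than in total culture RNA. Of the 38 members, 19 were higher in IP, 13 were lower and 6 were not called in edgeR, against 25.2% higher and 25.8% lower among all genes tested. Among the 11773 genes at least as high as the lowest member the shares were 45.5% and 32.7%. The 12 IP and 6 input libraries did not overlap for 16 members, against 25.0% of all genes, a share taken without that floor. All 4 amino acid synthesis genes and all 3 disulfide isomerases were higher in IP, and the ISR transcription factors were split, with 2 higher and 4 lower.

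**Figure D4:**
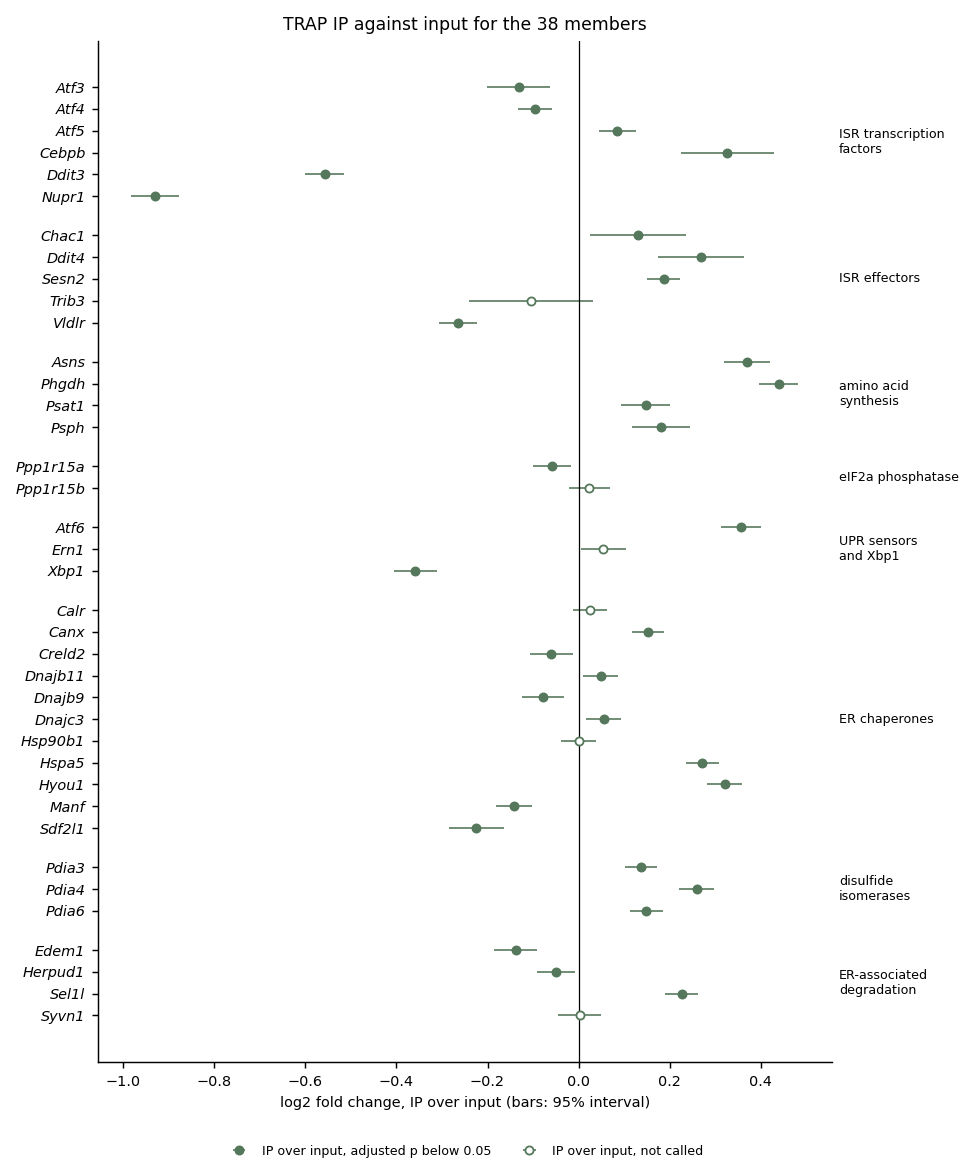
Log2 fold change of IP over input for the 38 members, grouped by role, from 12 IP and 6 input libraries. Bars are 95% intervals from the SE under a normal curve, and filled points have an adjusted p below 0.05 in edgeR. The values run from -0.93 for Nupr1 to 0.44 for Phgdh.

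The 2 largest differences, those of Nupr1 and Ddit3, were on the low side. Nupr1 was at -0.93 (SE 0.027, adjusted p = 1.23e-40 in edgeR), Ddit3 at -0.56 (SE 0.022, adjusted p = 1.62e-34) and Xbp1 at -0.36 (SE 0.024, adjusted p = 2.66e-22), and no IP library reached the lowest input library for any of them. Vldlr and Sdf2l1 followed at -0.27 and -0.22, and Manf at -0.14, Edem1 at -0.14 and Atf3 at -0.13. Atf4 was at -0.10, Dnajb9 at -0.08, and Ppp1r15a, Creld2 and Herpud1 between -0.06 and -0.05. With the dish as a replicate block, in the 12 libraries that share a dish, Ppp1r15a (-0.04, adjusted p = 0.0978 in edgeR), Dnajb9 (-0.06, adjusted p = 0.0522) and Herpud1 (-0.05, adjusted p = 0.0640) were not called. Dnajb11, on the high side at 0.05, was then at 0.02 (adjusted p = 0.468) and not called either.

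On the high side, Phgdh was at 0.44 (SE 0.022, adjusted p = 5.77e-29 in edgeR), Asns at 0.37 (SE 0.026, adjusted p = 3.12e-21) and Atf6 at 0.36 (SE 0.022, adjusted p = 1.84e-23), with every IP library above every input library. Cebpb was at 0.33, Hyou1 at 0.32, Hspa5 at 0.27, Ddit4 at 0.27, Pdia4 at 0.26 and Sel1l at 0.23. The members Sesn2, Psph, Canx, Pdia6, Psat1, Pdia3 and Chac1 lay between 0.13 and 0.19. Atf5 (0.08), Dnajc3 (0.06) and Dnajb11 (0.05) were called but close to 0. With total counts in place of TMM these last genes were at 0.03, 0.00 and -0.002 and not called.

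Several of the small differences between fractions rested on single libraries. Chac1 (0.13) lost its call without any 1 of 7 libraries (IP control 1, IP ethanol 4, 5 or 6, input control 4, input ethanol 4 or 5), with adjusted p up to 0.190. Creld2 lost it without any 1 of 6 (IP control 6, IP ethanol 5, input control 5 or 6, input ethanol 5 or 6; adjusted p up to 0.109), and Herpud1 without any 1 of 7 (IP control 3 or 5, IP ethanol 6, input control 4 or 6, input ethanol 4 or 6; adjusted p up to 0.0997). Dnajb11 lost it without any 1 of 5 (IP ethanol 1 or 3, input control 6, input ethanol 4 or 5; adjusted p up to 0.191), and Dnajc3 without input control 5 (adjusted p = 0.0587). Of the 6 not called, Ern1 (0.05) passed without IP control 4, IP ethanol 3 or input control 6 (adjusted p from 0.0256 to 0.0493). Trib3, Ppp1r15b, Hsp90b1, Calr and Syvn1 lay between -0.10 and 0.02, and Hsp90b1 was at -0.05 (adjusted p = 0.0209) with total counts.

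Input RNA comes from all cells of the dish. Between fractions, 25.2% of all genes tested were called higher in IP and 25.8% lower. The microglial markers, 9 of 10 called lower in IP, had a median log2 fold change of -2.46 between fractions, the fibroblast markers one of -1.04, with 6 called lower and 3 higher, and the astrocyte markers one of 0.61, with 9 called higher and 1 lower. The medians were 0.36 for neuronal markers (5 higher, 1 lower), 0.01 for oligodendrocyte lineage markers (5 and 4) and 0.06 for endothelial and mural markers (3 and 3). In control libraries, the summed CPM of each of these last lists was higher in IP than in input. The part of other cell types in the differences of Nupr1, Ddit3, Xbp1 and Phgdh between fractions was not tested.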

How the data were processed

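Libraries were made from ribosomal RNA-depleted total RNA with a stranded kit. Per the submitters' processing notes and the study's methods, the authors used Trimmomatic to trim read pairs, STAR to align them (GRCm38) and SAMtools; versions are not given in the sources used here. The deposited values are raw counts of read pairs per gene, and the series table holds the unstranded column of STAR's gene counts (0 cells differ from the single files). Members and gene lists were chosen with earlier results of these data known. The filter kept genes whose sum over the 18 libraries reached 10 read pairs, and the test was edgeR 4.0.16 (TMM, robust quasi-likelihood, R 4.3.3), Benjamini-Hochberg adjusted over all 24495 genes, threshold 0.05, within IP, within input, between fractions with a treatment term, and as an interaction. DESeq2 1.42.0, the tool the authors used, was an alternative. In simulated data with the real means and library sizes the edgeR steps found 100 of 100 genes changed 1.5-fold within each fraction, and 87 (IP) and 74 (input) of 100 changed 1.2-fold. CPM used TMM library sizes; levels between genes were divided by the longest GENCODE M21 transcript. Promoter sequences are RefSeq's. Of the members, 12 are given with their values in every library or group: the 3 largest increases and decreases past the threshold without overlap in each comparison, and Atf4, Ddit3, Atf6, Ern1, Xbp1 and Hspa5. GC and length trends were removed per library with splines of 4 degrees of freedom. The 95% intervals come from the SE under a normal curve. In IP and between fractions they are somewhat narrower than intervals of edgeR's test would be. Replicate libraries differed beyond counting noise (chi-square per degree of freedom from 3.87). The input and IP libraries of a dish are paired by their labels, and their deviations from the group means correlated at 0.02 to 0.15; the fit with this block is given beside the interaction. The fits treat the input and IP libraries of 6 dishes as independent unless that block is named.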

Additional observations from a re-analysis of the deposited data

Results flagged for a closer look

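In 5 of the 76 groups of 6 IP libraries (38 members in control and ethanol), 1 library stood farther from the others than Dixon's test for 6 values allows at the 95% level, and chance gives about 1 in 20 such groups. Psat1 was at 42.7 CPM in IP control replicate 5, against 38.9 to 40.1 CPM in the other controls. Hsp90b1 was at 438 CPM in IP ethanol replicate 1, against 406 to 413 CPM. Dnajb9 was at 54.0 CPM in IP ethanol replicate 5, against 51.7 to 52.2 CPM. Pdia4 and Calr were both high in IP ethanol replicate 3, at 258 and 881 CPM, against 235 to 240 CPM and 797 to 824 CPM. The groups of 3 input libraries were not examined in this way.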

How the results depend on the processing

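The number of members called changed by more than 1.5 times under 4 alternatives. Against a minimum change of 1.2-fold, 1 member (Atf5) was higher and 0 lower with ethanol in IP, 1 and 0 in input, and 4 higher and 3 lower in IP against input. Of the 24495 genes tested, 38 were then higher and 57 lower in IP, 8 and 47 in input, and 1910 and 3026 in IP against input. In IP replicates 4 to 6 alone, 11 members were higher with ethanol, against 7.45% of all genes. DESeq2 and edgeR's own filter on low counts each called 4 lower in IP, Manf and Creld2 in addition. Over all genes, DESeq2 called 11.1% lower in IP, near the share of the members, and edgeR with that filter called 2699 of 16839 lower. Leaving out 1 library at a time gave 17 to 22 members higher and 2 to 3 lower in IP, 9 to 13 higher and 2 lower in input, 17 to 20 higher and 11 to 13 lower in IP against input, and 0 in the interaction. With the replicate number as a replicate block, 23 members were higher in IP and 15 in input, against 3236 and 1847 of the 24495 genes tested. Control and ethanol libraries with the same number share only that number. Their deviations correlated at -0.10 to 0.22 in IP and 0.02 to 0.07 in input. With the dish as a replicate block, 18 members were higher and 10 lower in IP against input, where 23.8% of all genes were called each way. With total counts in place of TMM the values of Hsp90b1 and Dnajb11 between fractions turned negative, at -0.051 and -0.0021 (adjusted p of 0.0209 and 0.941 in edgeR). The median of all genes tested moved down too, from -0.028 with TMM to -0.078 with total counts. The cause was not tested. No other member that was called under either setting changed sign under the alternatives run. At 3 against 3 input libraries, some simulated 1.2-fold changes were missed. Those genes were drawn from genes at large, so the share missed is not that of the members. Most members changed by less than 1.2-fold, and some of these changes were called in input, such as Canx at 1.07-fold and Sel1l at 1.09-fold. Trib3 and Chac1 had the largest SE in input among the members, at 0.113 and 0.0945 on the log2 scale.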
